A study of Ciona savignyi with 56 samples.

Results

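Posterior epidermis of the 110-cell embryo of the ascidian Ciona savignyi, a sea squirt, was described from 67 single cells, which are the cells that the authors' cell table places in that class at that stage. They were 20, 23 and 24 cells of 3 embryos, out of 317 cells at the 110-cell stage and 773 in all. Of the 317 cells, 297 carried a class and 20 were marked as low quality and left out. The study picked the blastomeres of dissociated embryos with a capillary and sequenced each cell's polyadenylated RNA with barcoded primers in a variant of Smart-seq2, from the 1-cell to the 110-cell stage. Untreated 110-cell embryos were the source of posterior epidermis and of the 15 other classes it was compared with, and 3 untreated 64-cell embryos with 66 epidermis cells gave the earlier state. Further groups were used for description: 2 untreated 32-cell embryos (36 animal cells) and 2 embryos of 64 cells grown in sea water with U0126 at 2 µg/ml (63 animal cells), an inhibitor of the kinase MEK, which relays fibroblast growth factor (FGF) signals.

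Ascidian embryos cleave in a fixed pattern, so a blastomere is named by its lineage and its fate can be read from that name. Epidermis comes from the animal side of the embryo, its anterior portion from the a-line and its posterior portion from the b-line, and it is the fate that animal cells take when FGF signals from vegetal neighbours do not turn them towards neural tissue. The sister tissues of posterior epidermis are therefore the anterior epidermis and the a-line and b-line neural cells. The epidermis later covers the larva and makes its tunic.

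The comparison classes were the 10 classes of the same embryos (104 cells) whose lineages give neither epidermis, neural tissue nor nerve cord: endoderm, trunk lateral cells, primary and secondary notochord, heart precursor, germline, a pair of mesenchyme classes and a pair of muscle classes. The class names carry lineages and no fate words for these cells, so their fates were assigned from the known ascidian lineage. How the authors assigned cells to classes is not given in the sources used here. If expression was used, the genes that separate classes are not independent of the labels. Gene names do not accompany the identifiers in the files, so genes are given by identifier, their functions are not stated, and the label could not be checked against named epidermal markers.

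Counts were molecules tagged by unique molecular identifiers (UMIs). A posterior epidermis cell held between 8074 and 145744 UMIs, with a median of 25968. The median per embryo was 21424.5, 34447 and 28876.5 UMIs, near the medians of 25543, 34668 and 30558.5 over all classed cells of the same embryos. The cells came from all 15 libraries of the stage. One library, with 7 cells and a median of 107251 UMIs, held 3 posterior epidermis cells of embryo 3 and 38% of that embryo's posterior epidermis UMIs. The 110-cell libraries used the same 47 barcodes again, and no library held more than 1 cell with a given barcode. Matched by correlation to the class profiles of the other 2 embryos, on the 300 genes of largest variance among class profiles, 65 of 67 cells were nearest to posterior epidermis and the other 2 to anterior epidermis. If the authors' labels rest on expression, this match is not independent of them.

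Posterior epidermis made up 20.6%, 24.0% and 23.1% of the classed cells of the 3 embryos. Epidermis, not divided into anterior and posterior by the authors, made up 41.7%, 36.1% and 37.3% at the 64-cell stage. Genes per cell, counted after thinning each cell to 10000 UMIs (1 shallower cell was left out), averaged 3362, 3482 and 3482 in posterior epidermis and 3614, 3626 and 3441 in 64-cell epidermis. These ranges overlapped, and the difference of -119 genes did not pass an exact two-sided permutation test over embryos (p = 0.3, n = 3 embryos per stage). With 3 embryos per stage, the smallest p this test allows is 0.1.

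The first comparison asked which genes set posterior epidermis apart from the 10 comparison classes of its own embryos. UMIs were summed per embryo and class, and edgeR's quasi-likelihood test was used with the embryo as a block. Posterior epidermis was contrasted with the equal-weight mean of the log levels of the 10 classes. A gene was called at a Benjamini-Hochberg adjusted p under 0.05. All such p-values rest on 3 embryos per stage. Within a stage, the spread between embryos was estimated over all classes in the fit and moderated across genes. It was not taken from the contrasted classes alone, so a small p does not by itself show agreement of those classes in all 3 embryos. Of 5159 tested genes, 133 differed (2.58%): 90 were higher in posterior epidermis (1.74% of genes) and 43 were lower (0.833%). Without the deepest library 88 were higher and 40 lower, and DESeq2 divided its calls into 80 higher and 66 lower. Among the 90 higher genes, 82 were above the mean of the comparison classes in each of the 3 embryos, and in 72 the embryo values of the groups did not overlap, against 16.1% and 4.28% of all tested genes. All 43 lower genes were below it in each embryo, and in 38 the groups did not overlap, against 15.5% and 5.47% of all tested genes. The calls were made on these same values, so these counts describe them only.

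The higher side was headed by a pair of epidermis genes. ENSCSAVG00000003823 stood at 57.2, 84.4 and 76.9 CPM (UMI counts scaled to a common library size, after TMM scaling) in the posterior epidermis of the 3 embryos, and at 0.264, 0.217 and 0.520 CPM in the mean of the comparison classes. Every posterior epidermis value lay far above every comparison value, and the log2 fold change was 6.90 (SE 0.60, edgeR adjusted p = 6.10e-16). Several comparison classes, such as trunk lateral cells A7.6 and the heart precursor B7.5, held 0 UMIs of the gene. The size of its fold change therefore depends on the prior count of the fit. At least 1 UMI of the gene was found in 53 of 67 posterior epidermis cells (79.1%) and in 4 of 104 comparison cells (3.85%), although the comparison cells were the deeper ones, with a median of 38875 UMIs. ENSCSAVG00000002057 stood at 293, 378 and 617 CPM against 7.59, 3.28 and 3.72 CPM. The groups did not overlap, its log2 fold change was 6.78 (SE 0.33, edgeR adjusted p = 1.32e-33), and 67 of 67 posterior epidermis cells held a UMI of it. Secondary notochord B8.6 held 0 UMIs of this gene, so that size too depends in part on the prior count. In both genes anterior epidermis was the class nearest in level, with 15.3, 51.1 and 92.0 CPM for the first and 81.0, 267 and 342 CPM for the second.

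**Figure D1:**
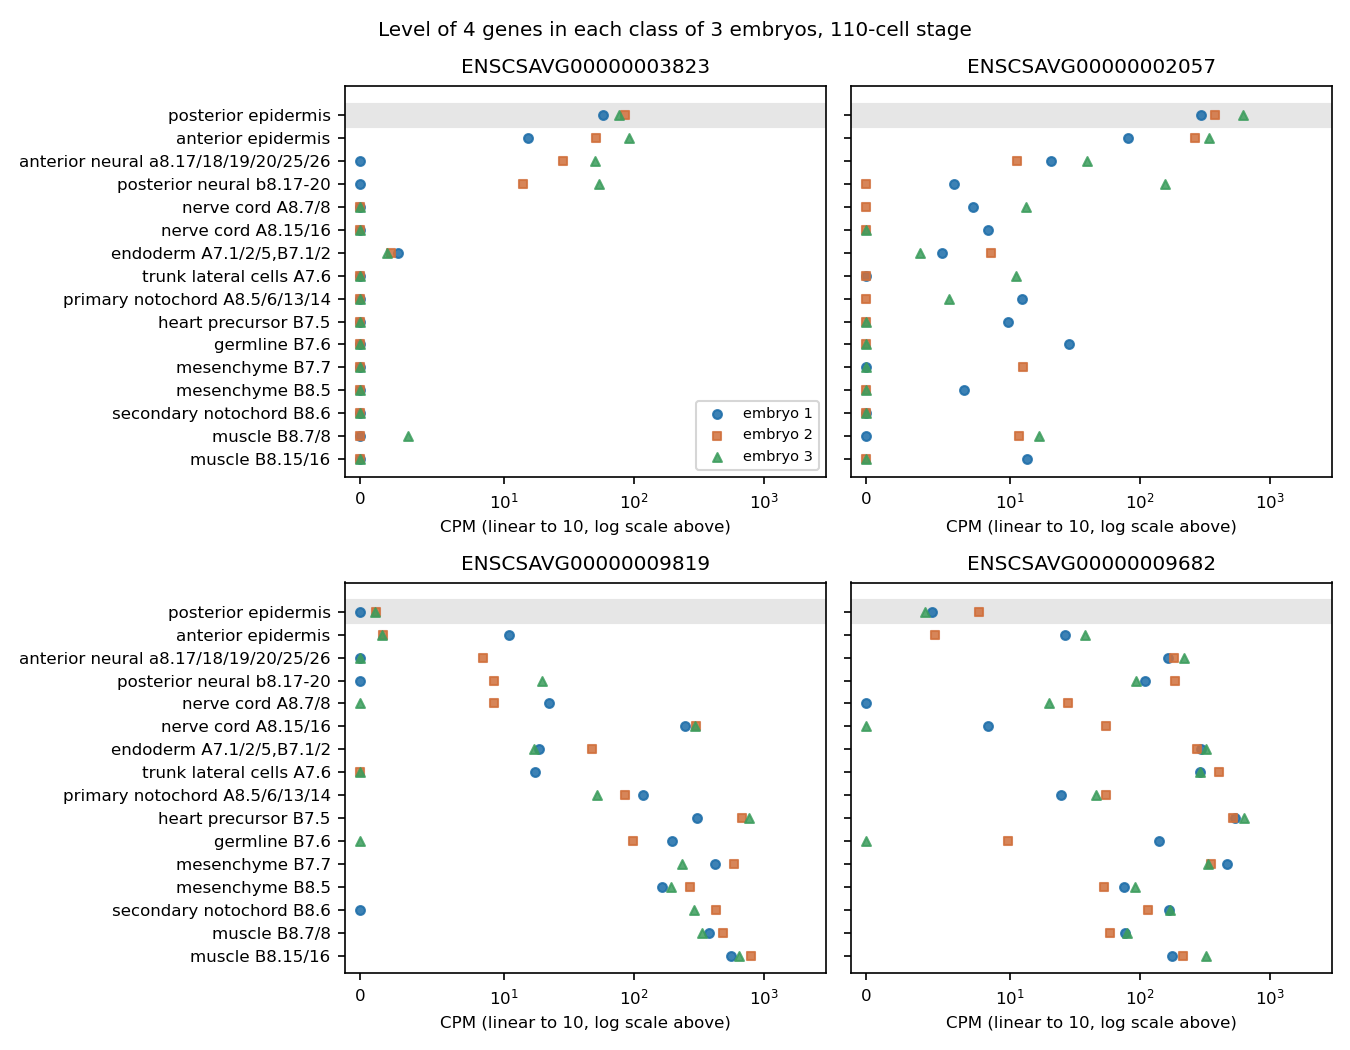
Level in CPM of 4 genes in each of the 16 classes of the 110-cell stage, 1 point per embryo, on an axis that is linear to 10 CPM and logarithmic above. ENSCSAVG00000003823 and ENSCSAVG00000002057 are high in both epidermis classes and low elsewhere, with intermediate values in neural classes, and ENSCSAVG00000009819 and ENSCSAVG00000009682 show posterior epidermis (grey band) at or below 7.88 CPM.

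On the lower side, ENSCSAVG00000009819 was at 0, 1.13 and 1.03 CPM in posterior epidermis and at 217, 347 and 253 CPM in the mean of the comparison classes (log2 fold change -6.73, SE 1.18, edgeR adjusted p = 9.81e-06). It was highest in the muscle class B8.15/16, with a mean of 665 CPM, and 2 of 67 posterior epidermis cells held a UMI of it against 72 of 104 comparison cells. Its test gave an adjusted p of 1 without embryo 1 and after thinning, where the error of the contrast was unbounded, and it was 9.40e-21 with the comparison cells pooled. ENSCSAVG00000009682 was at 4.58, 7.88 and 4.10 CPM against 224, 205 and 228 CPM (log2 fold change -4.68, SE 0.37, edgeR adjusted p = 2.23e-19). Unlike the first, it was also found in posterior neural cells, at 110, 185 and 92.5 CPM, and it was highest in the heart precursor B7.5.

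More lower genes were called when the comparison cells were pooled. A gene without a single UMI in some comparison class has no finite log level there, and on the lower side the equal-weight test can then lack a bounded error. Of the tested genes, 202 had no UMI in some comparison class. The error was unbounded for 43 tested genes, other than the 43 called lower. All 43 with an unbounded error were lower in posterior epidermis by more than 2-fold, and with such an error none could be called. Pooling sums the UMIs of an embryo's comparison cells into 1 profile, so classes with more UMIs weigh more. Endoderm (1347782 UMIs over the 3 embryos) and muscle B8.7/8 (947327) held the most. With the cells pooled in this way, 188 of 4932 tested genes differed (3.81%), 85 of them higher (1.72%) and 103 lower (2.09%). Of the equal-weight calls that were tested there, 78 of 88 higher genes and 42 of 42 lower genes were called again in the same direction. Of the 90 higher genes called with equal weights, 34 had no UMI in some comparison class, which lowers the mean log level of the comparison. Of the 43 lower genes, 0 did. Of the 61 lower genes called only with pooled cells, 33 had no UMI in some comparison class, 20 of them with an unbounded error. The other 28 had UMIs in every class, and why they were called only there was not tested. The 103 lower genes peaked in muscle B8.7/8 (23 genes), muscle B8.15/16 (17), secondary notochord B8.6 (12), primary notochord (10) and endoderm (8). Of these 103 genes, 20 lie in a run of 42 genes with neighbouring identifiers around the most abundant gene. The run also held 12 of the 43 lower genes called with equal weights and 0 of the 90 higher genes. It took 26.4%, 16.1% and 19.2% of UMIs in muscle B8.7/8 and 5.97%, 3.03% and 3.33% in posterior epidermis. Without the run, the equal-weight test called 87 higher and 30 lower genes.

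The direction of the calls was then measured in an embryo whose counts were left out of the fit that made them. Its class labels are the authors' own. If these labels rest on expression, the embryo set aside is not independent of the calls. With embryo 1, 2 or 3 set aside, 87, 88 and 71 genes were called higher from the other 2, and 85, 87 and 69 of them were also higher in the embryo set aside, where 72.8%, 68.5% and 73.9% of all tested genes were higher. Their median log2 difference there, taken on log2(CPM + 10), was 1.79, 1.89 and 2.12, beside medians of 0.20, 0.13 and 0.22 over all tested genes. Of 28, 29 and 31 genes called lower, 27, 27 and 31 were also lower in the embryo set aside, against 27.2%, 31.5% and 26.1% of all tested genes.

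The 90 higher genes were seldom particular to posterior epidermis in level. Anterior epidermis reached at least 50% of the posterior epidermis level in 85 of them, posterior neural cells in 61, anterior neural cells in 59, and each of the nerve cord classes in 31. A comparison class reached it in 16 to 29. By this measure 49 genes were shared by all 4 animal classes, 22 by both epidermis classes and 1 neural class, and 14 by the epidermis classes only, while 5 were below 50% in anterior epidermis. Of the 22 genes shared with 1 neural class, that class was posterior in 12 and anterior in 10. The median level of the 90 genes fell in the same order, from 166 CPM in posterior epidermis to 139 in anterior epidermis, 107 in posterior neural, 96.7 in anterior neural and 40.1 CPM in the mean of the comparison classes. Posterior epidermis held the highest mean level in 41 of the 90 and anterior epidermis in 27. The genes were chosen as high in posterior epidermis and low in the comparison classes, so the ends of this order follow from the choice. No share over all tested genes was taken, so these counts describe the 90 genes only.

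Tested against each of the 15 other classes in turn, posterior epidermis differed in the fewest genes from anterior epidermis (15 genes, 0.291%), then from posterior neural b8.17-20 (44 genes, 0.853%) and anterior neural cells (56 genes, 1.09%). The nerve cord classes A8.7/8 and A8.15/16 gave 94 (1.82%) and 112 genes (2.17%). The lowest count over the comparison classes was 93 genes against trunk lateral cells A7.6 (1.8%), followed by secondary notochord B8.6 (98 genes, 1.9%), germline B7.6 (119 genes, 2.31%), mesenchyme B8.5 (122 genes, 2.36%) and primary notochord (125 genes, 2.42%). Mesenchyme B7.7 gave 134 genes (2.6%) and endoderm 142 (2.75%). Muscle and heart precursors stood farthest away, with 155 genes against muscle B8.15/16 (3%), 176 against muscle B8.7/8 (3.41%) and 208 against the heart precursor B7.5 (4.03%). Depth differed between the classes, from a mean of 37856 UMIs per embryo in secondary notochord B8.6 to 573009 in anterior epidermis, with 130668 in B7.5. Its part in these counts was not tested.

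**Figure D2:**
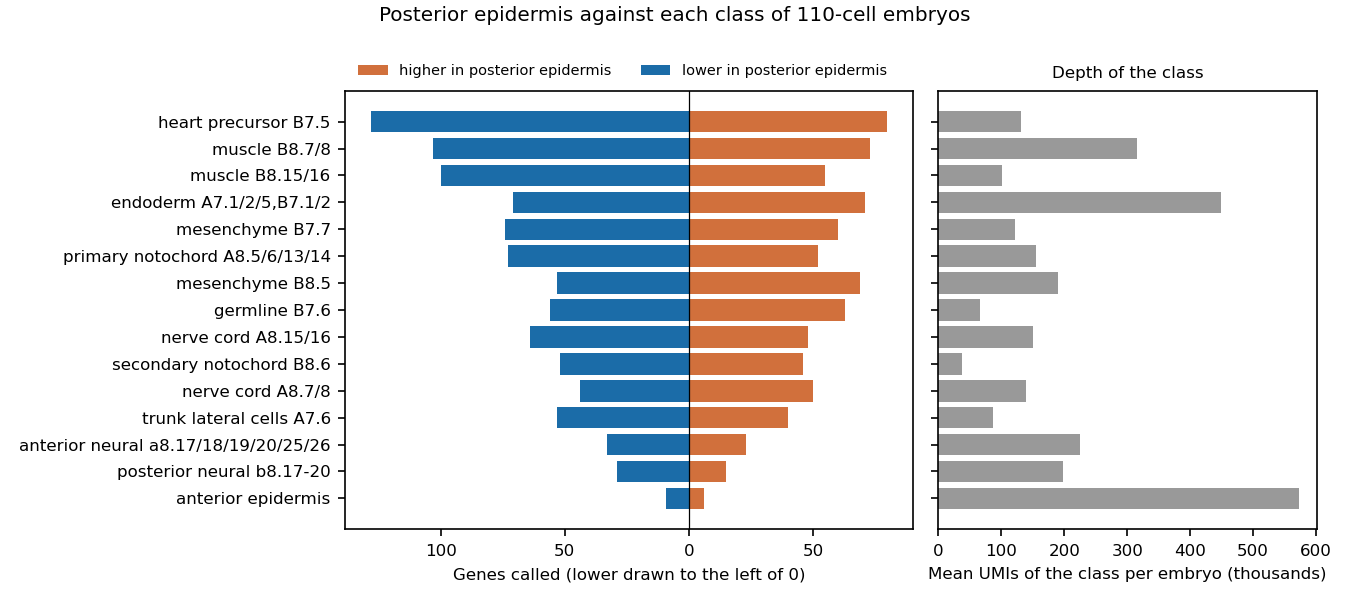
Left, number of genes called higher (orange) and lower (blue) in posterior epidermis against each other class of the 110-cell embryos by edgeR. Right, mean UMIs of that class per embryo; anterior epidermis gives 15 calls at 573009 UMIs and the heart precursor B7.5 gives 208 at 130668.

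Posterior and anterior epidermis were compared directly to find genes that mark position within one tissue. Of 5159 genes, 15 differed (0.291%), 6 higher in posterior epidermis (0.116%) and 9 in anterior epidermis (0.174%). The direction was the same in every embryo for 5 of the 6 and for 9 of the 9. These genes were called on the same values and no share over all tested genes was taken, so the counts describe them only. The count moved with the settings: it was 57 (25 higher, 32 lower) with only the epidermis classes in the fit, 9 (1 higher, 8 lower) with DESeq2, 7 without embryo 3, and 0 with limma-trend, where 16 genes had an unadjusted p under 0.05.

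Of the genes higher in posterior epidermis, ENSCSAVG00000005769 measured 22.9, 6.75 and 57.4 CPM against 6.56, 0 and 0 CPM in anterior epidermis. The classes did not overlap, though the lowest posterior value was close to the highest anterior one, and the log2 fold change was 3.53 (SE 0.82, edgeR adjusted p = 0.0180, and 0.160 without the deepest library). The gene was not particular to epidermis, since the mean of the comparison classes was 23.4, 20.3 and 37.2 CPM. It was still among the 90 genes called higher than those classes (log2 fold change 3.17, edgeR adjusted p = 0.000452). That contrast averages log levels and not CPM. ENSCSAVG00000011646 measured 11.4, 39.4 and 20.5 CPM against 2.19, 3.19 and 1.56 CPM (log2 fold change 3.15, SE 0.66, edgeR adjusted p = 0.00348). The classes did not overlap, though the call was lost without embryo 2 (0.312) or embryo 3 (0.194), and the comparison classes were well above both at 104, 139 and 152 CPM. ENSCSAVG00000002946, named after its values were seen, was the one gene of the 6 whose direction changed between embryos. It stood at 1751, 405 and 195 CPM in posterior epidermis and at 166, 243 and 206 CPM in anterior epidermis, so that embryo 1 carried most of the difference.

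The genes most strongly raised in anterior over posterior epidermis were low in posterior epidermis. ENSCSAVG00000002442 was at 0, 4.50 and 0 CPM against 63.4, 22.3 and 20.3 CPM (log2 fold change -3.80, SE 0.64, edgeR adjusted p = 3.90e-05), with a UMI in 3 of 67 posterior and 21 of 56 anterior epidermis cells. ENSCSAVG00000005021 was at 18.3, 14.6 and 16.4 CPM against 153, 102 and 221 CPM (log2 fold change -3.32, SE 0.42, edgeR adjusted p = 1.80e-08). In neither gene did the classes overlap. The mean of the comparison classes was 158, 65.2 and 64.3 CPM for the first and 85.3, 104 and 92.8 CPM for the second. Of the 9 genes higher in anterior epidermis, 0 had their highest level of all classes there. Against the comparison classes, 4 of the 9 were called lower in posterior epidermis and 1 was called higher.

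Whether these position genes follow the same axis in the neural classes was measured by contrasting posterior neural b8.17-20 with anterior neural cells. By the authors' labels these classes share no cells with the epidermis classes. That contrast called 21 of 5159 genes (0.407%), 11 higher (0.213%) and 10 lower (0.194%) in posterior neural cells. Of the 6 genes higher in posterior epidermis, 5 had the same sign in neural cells and 0 were called. Of the 9 genes higher in anterior epidermis, 8 had the same sign, 2 were called in the same direction and 1 in the opposite one. The share of all tested genes with these signs was not taken, so the counts of signs describe these few genes only. The gene that turned was ENSCSAVG00000005021. Posterior neural cells held it at 171, 213 and 151 CPM and anterior neural cells at 13.8, 5.69 and 5.58 CPM (log2 fold change 4.55, SE 0.65, edgeR adjusted p = 5.01e-07). It was thus high in anterior epidermis and posterior neural cells and low in posterior epidermis and anterior neural cells, in every embryo.

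The difference between both contrasts was tested directly, in a test added after the data had been seen. It passed the threshold in 3 of 5159 genes (0.0582%), with 1 positive (0.0194%) and 2 negative differences (0.0388%), among them ENSCSAVG00000005021 (log2 difference -7.88, SE 0.76, edgeR adjusted p = 1.35e-13). The gene kept its call in each fit that left out 1 embryo and in DESeq2. At the 64-cell stage the same gene was already unequal in neural precursors, with a mean of 161 ± 36.6 CPM (SD, n = 3 embryos) in b7.9/10 and 7.78 ± 6.75 CPM in a7.9/10/13, while 64-cell epidermis held 9.22 ± 4.93 CPM. The neural contrast at that stage had a log2 fold change of 4.16 (SE 0.75, edgeR adjusted p = 0.000275), among 4 genes called higher (0.0775%) and 2 called lower (0.0387%) of 5162.

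**Figure D3:**
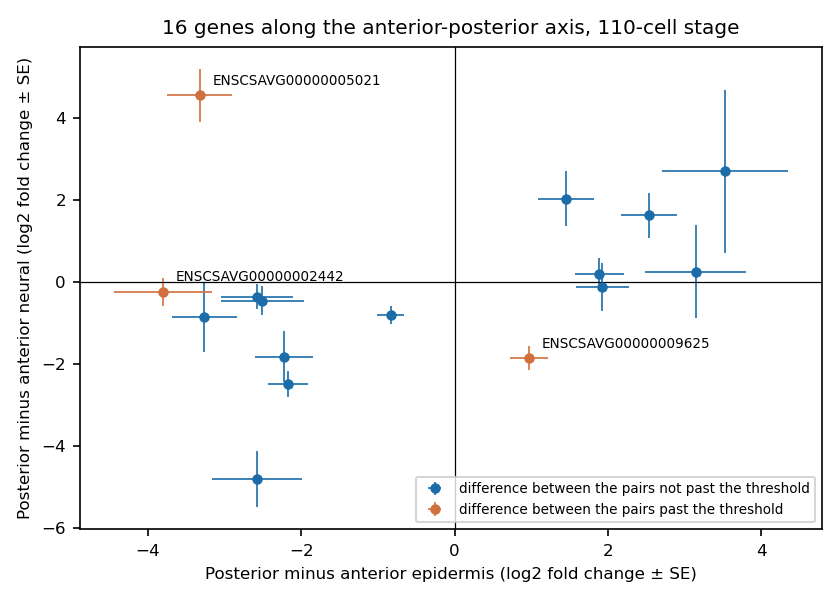
Log2 fold change of posterior over anterior epidermis (horizontal) and of posterior over anterior neural cells (vertical), with standard errors, for the 15 genes called between the epidermis classes and 1 more gene whose contrasts differ. ENSCSAVG00000005021 lies at -3.32 and 4.55, in the quadrant of opposite signs.

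Against posterior neural cells, the b-line sister tissue, 15 genes were higher in posterior epidermis (0.291%) and 29 lower (0.562%), which became 6 and 17 with DESeq2. ENSCSAVG00000005894 stood at 227, 598 and 236 CPM in posterior epidermis and at 55.0, 41.7 and 24.4 CPM in posterior neural cells, with no overlap (log2 fold change 3.12, SE 0.45, edgeR adjusted p = 2.17e-07, and 0.0740 with DESeq2). ENSCSAVG00000006812 stood at 0, 4.50 and 0 CPM against 293, 449 and 492 CPM (log2 fold change -7.59, SE 0.69, edgeR adjusted p = 1.69e-14, and 1 with DESeq2), and its level in the mean of the comparison classes was at most 6.70 CPM.

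The earlier state was followed first through the contrast of 64-cell epidermis with its own 10 comparison classes (71 cells), in embryos that share nothing with the 110-cell embryos. Germline and heart precursor cells were present in 2 of the 3 embryos. That contrast called 72 of 5162 genes (1.39%), 59 higher (1.14%) and 13 lower (0.252%), and DESeq2 called 49 and 39. With pooled comparison cells 121 were called (2.49%), 57 higher (1.18%) and 64 lower (1.32%). Of the 90 genes higher in posterior epidermis, 75 passed the count filter at 64 cells. All 75 had a positive contrast there and 50 were called, against 66.5% and 1.19% of the 4865 genes tested at both stages. The 50 genes are 55.6% of the 110-cell list and 84.7% of the 64-cell list. Their 110-cell groups differed in this respect: 10 of 11 tested genes that were shared by the epidermis classes only were called at 64 cells, and 23 of 44 of those shared by all animal classes, a difference that was not tested. With pooled comparison cells, 55 of 75 lower genes tested at 64 cells were called lower there as well, where the equal-weight test called 11 of 42.

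ENSCSAVG00000002057, described above, was at 111, 144 and 90.2 CPM in 64-cell epidermis and at 5.35, 6.64 and 10.3 CPM in the comparison classes (log2 fold change 4.70, SE 0.48, edgeR adjusted p = 3.54e-13). The strongest epidermis gene of the 64-cell stage, ENSCSAVG00000002003, was at 163, 186 and 205 CPM against 0.953, 3.01 and 3.93 CPM (log2 fold change 6.56, SE 0.43, edgeR adjusted p = 2.83e-22). In posterior epidermis it was at 346, 413 and 477 CPM, and in anterior neural cells at 352, 455 and 519 CPM, so it was not confined to epidermis. For both genes, 64-cell comparison classes such as germline B7.6 held 0 UMIs, so the sizes of these 64-cell fold changes depend on the prior count.

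The 90 genes were also described at each stage. On log2(CPM + 10), their median difference from the mean of the comparison classes was 0.65 and 0.37 in animal cells of the 32-cell embryos, 1.15, 1.40 and 1.28 in 64-cell epidermis and 1.78, 1.86 and 1.75 in posterior epidermis. Over all tested genes the same median lay between 0.11 and 0.22 in all of these embryos. Since the 90 genes were chosen for their contrast at the 110-cell stage, a high value there follows from the choice and no change between stages is read from these medians. In animal cells of U0126-treated embryos the medians were 1.65 and 1.05, on either side of the untreated values. The 32-cell and U0126 columns hold reads and not UMIs, and their classes are grouped more coarsely, so their levels are set beside the others without a test.

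**Figure D4:**
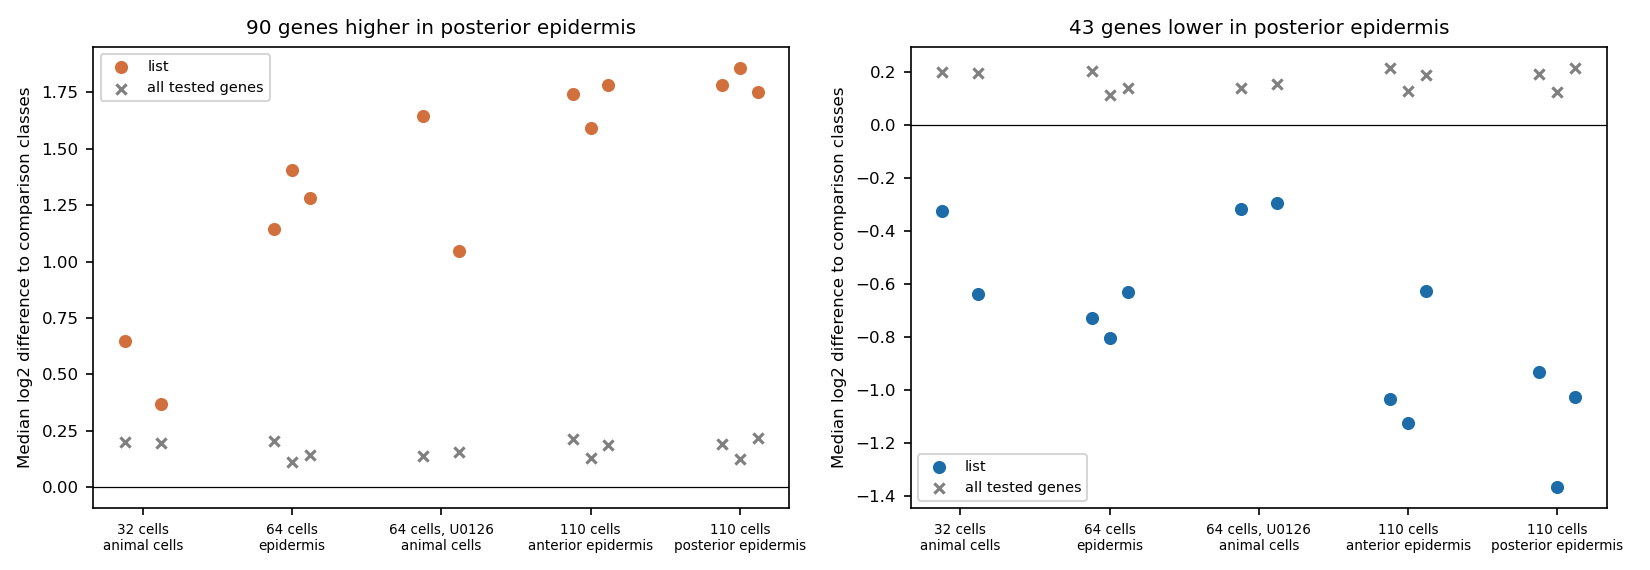
Median log2(CPM + 10) difference between epidermis or animal cells and the mean of the comparison classes of the same embryo, 1 point per embryo, for the 90 higher genes (left) and the 43 lower genes (right); crosses show all tested genes. The left medians run from 0.37 at 32 cells to 1.86 in posterior epidermis of the 110-cell stage, where the lists were chosen.

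Set directly against 64-cell epidermis, posterior epidermis differed in 1 of 6208 genes (0.0161%), and 265 genes had an unadjusted p under 0.05. The 64-cell class is not divided into anterior and posterior, and the stages come from different embryos and libraries. Stage, position and library cannot be told apart in this comparison. With anterior and posterior epidermis of the 110-cell embryos summed, 1 of 6444 genes was called. DESeq2 called 17 and limma-trend 2. The gene called by edgeR was ENSCSAVG00000002048, at 107, 143 and 131 CPM in posterior epidermis and at 15.6, 21.1 and 13.7 CPM in 64-cell epidermis (log2 fold change 2.91, SE 0.29, edgeR adjusted p = 0.0150). The stages did not overlap, and the fold change stayed between 2.81 and 3.11 when 1 embryo was left out, while the adjusted p rose above 0.05 in 5 of these 6 fits, to between 0.0613 and 0.226. Anterior epidermis of the 110-cell embryos held the gene at 98.5, 207 and 275 CPM, and the comparison classes had at most 7.63 CPM.

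The change of the epidermis contrast between the stages was tested as an interaction, which takes away what changed in the comparison classes too. This test also sets posterior epidermis at 110 cells beside undivided epidermis at 64 cells, so stage and position cannot be told apart. In the equal-weight form 0 of 5820 genes passed (0%), with 113 at an unadjusted p under 0.05, 2 genes in DESeq2 and 2 in limma-trend. In this form 311 genes had an unbounded error, because some class of either stage held no UMI of them. With the comparison cells pooled, an alternative added after the data had been seen, 17 of 5273 genes passed (0.322%), 11 with a contrast that rose (0.209%) and 6 with one that fell (0.114%). In 15 of the 17 the contrasts of the 110-cell embryos lay all above or all below those of the 64-cell embryos. The 17 were called on these same values and no share over all tested genes was taken, so this count describes them only.

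ENSCSAVG00000002225 had the largest fall. It was at 46.3, 47.3 and 42.5 CPM in 64-cell epidermis, beside 47.0, 36.9 and 35.2 CPM in the pooled comparison cells, and at 4.60, 0 and 1.03 CPM in posterior epidermis, beside 37.3, 26.5 and 63.9 CPM. The gene was level between epidermis and the other cells at 64 cells and nearly lost from posterior epidermis at 110 cells (log2 change of the contrast -4.94, SE 0.76, edgeR adjusted p = 6.51e-05). Anterior epidermis had 6.55, 1.60 and 0 CPM. ENSCSAVG00000002048 was among the genes that rose (log2 change 3.61, SE 0.76, edgeR adjusted p = 0.00807). ENSCSAVG00000011646 rose most among those without overlap (log2 change 3.85, SE 0.82, edgeR adjusted p = 0.00907), from 0, 0 and 2.66 CPM in 64-cell epidermis to 11.5, 39.9 and 20.6 CPM in posterior epidermis, which still lay below the 94.0, 114 and 158 CPM of the pooled comparison cells. The values at 0 make the size of that change depend on the prior count of the fit.

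The position genes were also read in single cells. Each cell was given the mean log2(CPM + 10) of the 6 posterior genes and of the 9 anterior genes. In the 110-cell embryos, where the genes were chosen, the posterior mean exceeded the anterior one in 19 of 20, 22 of 23 and 24 of 24 posterior epidermis cells, and in 3 of 19, 5 of 17 and 3 of 20 anterior epidermis cells. The 64-cell epidermis cells had no part in that choice. Their differences between the means ran from -0.58 to 1.85 in embryo 1, -1.20 to 3.48 in embryo 2 and -2.58 to 2.62 in embryo 3. In embryo 1 even the lowest difference lay within the range of posterior epidermis of 110-cell embryo 1, -0.76 to 2.61. A spread from anterior-like to posterior-like values was thus seen in embryos 2 and 3 only. Across the 25, 22 and 19 cells of the 64-cell embryos, the means were inversely related, with Pearson's r of -0.23, -0.72 and -0.79. In posterior epidermis r was -0.26, -0.39 and -0.05, and in anterior epidermis -0.42, -0.29 and 0.08. These correlations describe cells that share an embryo, a library and a range of depth, and are given without a test.

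**Figure D5:**
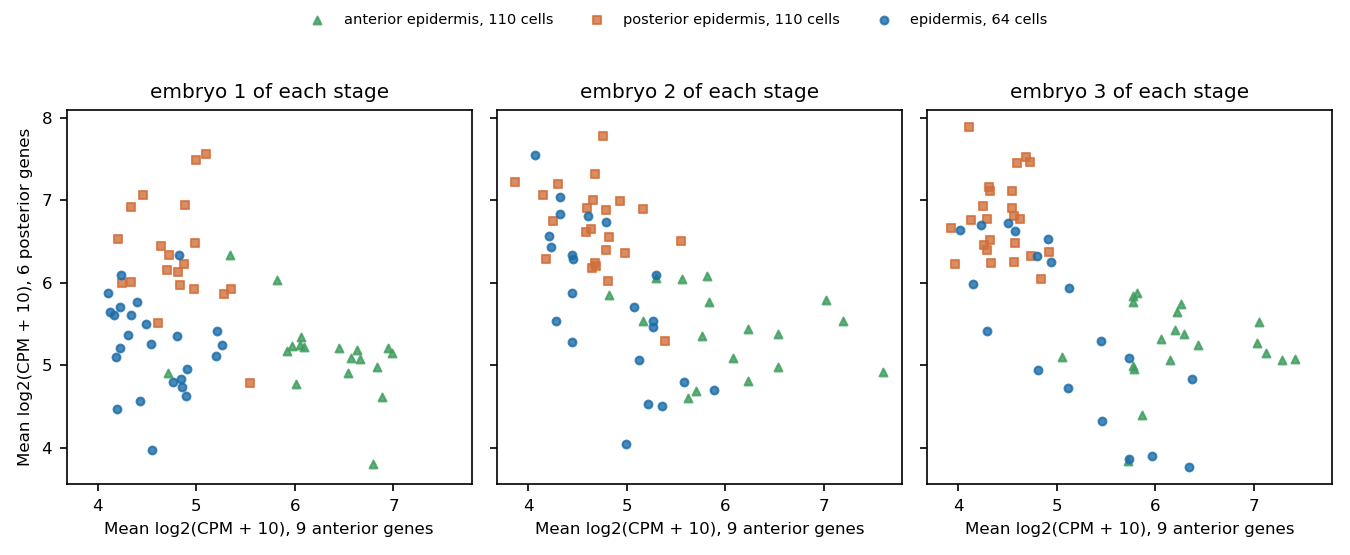
Mean log2(CPM + 10) of the 6 posterior genes (vertical) against that of the 9 anterior genes (horizontal) in single cells, 1 panel per embryo number, with 64-cell and 110-cell embryos of the same number being different animals. Epidermis cells of the 64-cell stage (blue) in embryos 2 and 3 run from the range of posterior epidermis (orange) towards that of anterior epidermis (green), with r of -0.72 and -0.79.

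For most genes, the variance between posterior epidermis cells stayed at or below 2 times the mean. Among cells of an embryo thinned to 10000 UMIs, 9.17%, 5.85% and 5.37% of genes with at least 20 counts had a variance above 2 times their mean. Of genes with at least 100 counts, 15.5%, 11.6% and 11.2% did. A gene near the limit of 20 counts holds few UMIs per cell, so this measure cannot show that its variation between cells is small. With at least 20 counts, the other classes were set beside posterior epidermis. The shares were 8.74%, 8.99% and 7.71% in anterior epidermis and 2.47%, 4.84% and 4.29% in 64-cell epidermis, so that each posterior epidermis embryo lay above each 64-cell embryo. Of 2485 genes measured in every embryo, 9 had a variance above 2 times their mean in all 3, and 4 of the 9 lie in the run of 42 genes with neighbouring identifiers. Of the 53 higher genes measured in every embryo, 1 did so. The 3 genes with the highest minimum of variance over mean across embryos were ENSCSAVG00000012509, ENSCSAVG00000011890 and ENSCSAVG00000012450, named after their values were seen. All 3 are abundant, with mean levels of 29863, 8894 and 9204 CPM in posterior epidermis. Variance over mean rises with level at a given relative spread, so this ranking favours abundant genes. ENSCSAVG00000011890 and ENSCSAVG00000012450 were correlated across the 20, 23 and 24 cells of the embryos, with Pearson's r of 0.95, 0.82 and 0.93. ENSCSAVG00000012509 changed sign between embryos, with r of 0.48, -0.44 and -0.21 to ENSCSAVG00000011890 and of 0.33, -0.43 and -0.26 to ENSCSAVG00000012450. These cells too share an embryo, libraries and a range of depth. ENSCSAVG00000011890 took a median of 1.01%, 0.410% and 0.531% of a cell's UMIs and up to 4.78%, 1.22% and 4.53% in single cells. The mean level of ENSCSAVG00000011890 in posterior epidermis, 8894 CPM, was close to the median of 7977 CPM over classes.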

How the data were processed

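The deposited matrix holds counts for 12172 genes in 773 cells. In all 317 cells of the 110-cell stage and all 179 of the 64-cell stage the matrix total equals the UMI number in the authors' cell table, so these are UMI counts; the 32-cell and U0126 columns match the read number. CASAVA 1.8 is listed, beside DESeq2 and Seurat, per the submitters' processing notes. Which aligner, genome build and annotation made the counts is not given in the sources used here. Counts were summed per embryo (n = 3) and class and tested with edgeR 4.0.16 in R 4.3.3 (TMM, filterByExpr, quasi-likelihood test, Benjamini-Hochberg over all tested genes, embryo as a block within a stage). The block pairs the classes of the same animal. Alternatives used DESeq2 1.42.0 and limma 3.58.1 (prior count 2). The edgeR fits were also run on simulated counts, where all classes had the same mean per gene except for changes set in posterior epidermis. No gene was made silent in only some comparison classes, so the simulation cannot test the unbounded errors. Sums, thinning and permutation tests used scipy 1.17.1, pandas 2.3.3 and numpy 2.4.6 under Python 3.11.15, and figures matplotlib 3.10.9.

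Named genes passed the test, had the same direction in every embryo (no overlap between stages) and had the largest fold change, 2 per direction; other genes are said to be named after their values were seen. The rule for comparison classes was written with fate words, but class names carry lineages, so fates were assigned from the known lineage after the table was seen. Members and lists were chosen with earlier results of these data known.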

Additional observations from a re-analysis of the deposited data

Results flagged for a closer look

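The posterior-anterior difference was not the same in epidermis and in neural cells for 3 genes at the 110-cell stage, by a test of the difference between both contrasts. ENSCSAVG00000005021 was lower in posterior than in anterior epidermis and higher in posterior than in anterior neural cells, a log2 difference of -7.88. ENSCSAVG00000009625 had opposite signs the other way round, with 227, 161 and 259 CPM in posterior against 103, 156 and 79.5 CPM in anterior epidermis and 55.0, 153 and 151 CPM in posterior against 455, 546 and 335 CPM in anterior neural cells, a log2 difference of 2.83 (SE 0.38, edgeR adjusted p = 1.73e-07). Its epidermis contrast alone did not pass (log2 fold change 0.97, edgeR adjusted p = 0.0520), and embryo 2 was nearly level there. In ENSCSAVG00000002442 the epidermis classes differed while the neural classes were near each other, at 147, 171 and 258 CPM in posterior and 207, 236 and 229 CPM in anterior neural cells, a log2 difference of -3.56 (SE 0.74, edgeR adjusted p = 0.00980). The adjusted p of that gene was 0.271 without embryo 1, 0.723 without embryo 3 and 0.167 with DESeq2. All 3 genes were named after their values were seen.

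The contrast between epidermis and pooled comparison cells differed between the 64-cell and 110-cell stages in 17 genes by the interaction test. ENSCSAVG00000011646 and ENSCSAVG00000002048 had the largest rises without overlap between embryos, with log2 changes of 3.85 and 3.61. ENSCSAVG00000002225 and ENSCSAVG00000010848 had the largest falls, with log2 changes of -4.94 and -4.60. ENSCSAVG00000010848 was at 7.27, 9.46 and 34.6 CPM in 64-cell epidermis and at 13.8, 6.84 and 3.09 CPM in posterior epidermis, while the pooled comparison cells held 0, 0 and 1.07 CPM at 64 cells and 8.11, 2.41 and 6.98 CPM at 110 cells. The size of its change therefore rests on comparison values at 0 and on the prior count. Anterior epidermis of the 110-cell stage held the gene at 37.1, 53.0 and 40.8 CPM. Since 64-cell epidermis is not divided by position, stage and position cannot be told apart in this change.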

How the results depend on the processing

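Of 217 values of 20 single genes under alternatives, 0 changed sign and 188 stayed on their side of the threshold. Called genes against the comparison classes of 110-cell embryos numbered 133, and 70 with limma-trend, 205 without a filter on low counts and 54 after thinning. Without the embryo as a replicate block they numbered 88 there, 5 in place of 15 against anterior epidermis and 46 in place of 72 in 64-cell epidermis. With the library as replicate block, 23 genes were called against anterior epidermis. Leaving out an embryo gave 102 to 117 against the comparison classes, 7 to 16 against anterior epidermis, 30 to 32 against posterior neural cells and 50 to 76 at 64 cells.

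Against anterior epidermis the other counts were 9 with DESeq2, 0 with limma-trend, 27 without a filter and 57 with only the epidermis classes in the fit. Against posterior neural cells 44 calls became 23 with DESeq2 and 10 with limma-trend. At 64 cells 72 became 45 with limma-trend, 122 without a filter and 121 with pooled comparison cells. Against 64-cell epidermis 1 call became 17 with DESeq2, 2 with limma-trend, 18 without a filter, 3 with all classes in the fit, 3 after thinning, and 0 to 6 when an embryo was left out. The interaction's 0 became 1 with RLE scaling, 2 with DESeq2, 2 with limma-trend, 2 without a filter, 1 without the run of neighbouring identifiers, 0 to 1 when an embryo was left out, and 17 with pooled comparison cells. The median count over the 15 single classes was 119 with edgeR and 96 with DESeq2. The mean share of variable genes was 6.80%, and 12.8% among genes with at least 100 counts. The cause of these shifts was not tested. Embryos numbered 3 per stage, genes under about 10 CPM rested on few UMIs, and depth differed between classes.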
